A study of Homo sapiens with 6 samples.

Results

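The human genes that encode the replacement variants of histones H3 and H2A were examined: H3-3A and H3-3B for H3.3, H2AZ1 and H2AZ2 for H2A.Z, H2AX for H2A.X, H2AJ for H2A.J, and MACROH2A1 and MACROH2A2 for macroH2A. They were listed by name, with earlier results of these data known, and are 8 of the 20289 genes in the deposited table. The libraries came from RKO, a long-established line of human colorectal cancer cells. In 3 libraries the cells carried a control short hairpin RNA (shControl), and in the other 3 a hairpin against TRMT6 (shTRMT6). TRMT6 pairs with the catalytic subunit TRMT61A to place N1-methyladenosine on tRNAs, and the study's title links it to histone synthesis. The hairpin sequences, whether more than a single hairpin was used, and any selection of clones are not given in the sources used here.

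Most histone protein is made in S phase from clustered genes whose mRNAs have no introns and end in a stem-loop instead of a poly(A) tail. Replacement variants come instead from single genes, most of them with introns and polyadenylated mRNAs, and are made through the cell cycle. H3.3 is put into active and telomeric chromatin by the HIRA and DAXX-ATRX chaperones, H2A.Z is exchanged into promoter nucleosomes by the SRCAP and EP400 complexes, H2A.X is phosphorylated around DNA breaks, and macroH2A carries a large macrodomain and is found in silent chromatin. H2AX mRNA is made in both a stem-loop and a polyadenylated form.

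The H3.3 genes moved in opposite directions between the groups. H3-3A and H3-3B encode the same protein from separate chromosomes. The translated reading frames were identical over 136 residues, while 88 of the 408 coding bases differed (78.43% identical). The opening 120 coding bases, which hold 24 of these differences in capitals, are shown because such differences let short reads be assigned to either gene.

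H3-3A: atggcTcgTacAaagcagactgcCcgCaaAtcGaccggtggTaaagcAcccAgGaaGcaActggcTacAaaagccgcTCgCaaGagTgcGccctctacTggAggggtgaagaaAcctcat
H3-3B: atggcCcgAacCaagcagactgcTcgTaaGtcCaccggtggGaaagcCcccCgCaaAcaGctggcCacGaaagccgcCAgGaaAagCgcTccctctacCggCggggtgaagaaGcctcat

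Sequence upstream of the start sites also differed between these genes, and is shown because the mRNAs moved in opposite directions. The stretches come from the RefSeq promoter table (GRCh38.p14), at chr1:226062466-226062677 on the plus strand for H3-3A and chr17:75779781-75780029 on the minus strand for H3-3B. They hold no exon base of the genes' coding transcripts. Both stretches lie inside the annotated genes. That of H3-3A comes after the first exon of its longest-reaching transcript and before the start site nearest to its main transcript. That of H3-3B lies before the start of its main transcript, and the annotated gene reaches further upstream, to base 75785893. Capitals mark CCAAT or its complement ATTGG, and TATAA or its complement TTATA.

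H3-3A upstream: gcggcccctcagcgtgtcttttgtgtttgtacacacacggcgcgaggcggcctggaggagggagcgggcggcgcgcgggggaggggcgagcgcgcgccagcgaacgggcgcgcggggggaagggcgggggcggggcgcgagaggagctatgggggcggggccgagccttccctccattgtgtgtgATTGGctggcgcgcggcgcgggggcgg
H3-3B upstream: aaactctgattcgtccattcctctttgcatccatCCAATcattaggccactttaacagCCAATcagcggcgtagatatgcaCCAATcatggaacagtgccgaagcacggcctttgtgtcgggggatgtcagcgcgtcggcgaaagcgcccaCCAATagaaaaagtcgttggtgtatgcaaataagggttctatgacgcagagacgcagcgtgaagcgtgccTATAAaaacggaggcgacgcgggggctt

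The H3-3B stretch held 4 CCAAT matches, 1 TATAA match and no GGGCGG. The H3-3A stretch held 1 CCAAT match, no TATAA and 5 matches of GGGCGG or its complement CCGCCC. The full 250-base window it was cut from held 6, and its start site lay 1261 bases from the start of the main transcript. Matches were counted on both strands, overlapping matches included, and the letters were chosen after the sequences had been seen. Across 35116 RefSeq promoters, 32.01% of the 250-base windows before the start held CCAAT and 0.87% held 4 or more. TATAA was in 18.93% and GGGCGG in 42.64%, with 4 or more GGGCGG in 7.63%. In the same window, H2AZ2 and H2AX each held 4 CCAAT matches, H2AZ1 and H2AJ held 3, MACROH2A1 held 2 at the start site nearest to its main transcript and 0 at another, and MACROH2A2 held none. H3-3A has 4 start sites in that table, with 0 or 1 CCAAT match each. A match is a description of letters, and no binding was measured.

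**Figure D1:**
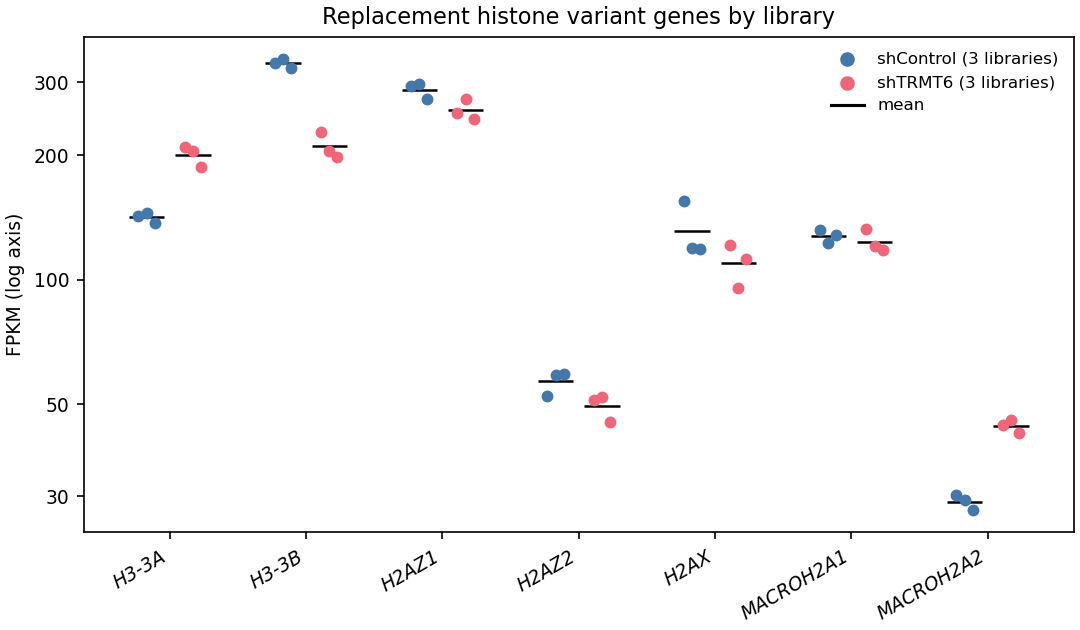
FPKM of each gene in every library (y axis, log scale), with points for the shControl and shTRMT6 libraries and bars for group means. H3-3A and MACROH2A2 were higher in all 3 shTRMT6 libraries and H3-3B was lower in all 3. H2AJ, listed at 0, is not drawn.

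Values are FPKM, in which fragments are divided by transcript length and by sequencing depth, so levels can be compared between genes per length. In shControl, H3-3B was the most abundant variant mRNA at 333.8 FPKM, followed by H2AZ1 at 288.1. H3-3A at 141.7, H2AX at 131.1 and MACROH2A1 at 127.4 FPKM came next, and the libraries of neighbours in that trio overlapped. H2AZ2 at 56.8, MACROH2A2 at 29.1 and H2AJ at 0 closed the order. In shTRMT6, H2AZ1 led at 257.1 FPKM, and H3-3B at 210.0 overlapped with H3-3A at 200.5. MACROH2A1 at 123.7 overlapped with H2AX at 109.7, and H2AZ2 at 49.6 overlapped with MACROH2A2 at 44.4 FPKM. By its mean over the 6 libraries, each of the 7 detected genes lay above at least 76.9% of the 10592 genes that passed a mean of 1 FPKM.

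Of these 7 tested genes, 2 were called higher in shTRMT6 (H3-3A and MACROH2A2), 1 was called lower (H3-3B) and 4 were not called. The call was an adjusted p under 0.05 in limma on log2(FPKM + 1), with Benjamini-Hochberg adjustment over all 10592 genes. Over all tested genes the same rule called 35.4%, of which 19.3% of tested genes were higher and 16.1% lower. The median log2 fold change was -0.16 over the 7 genes and 0.02 over all tested genes. The groups did not overlap for 4 of the 7 (H3-3A, H3-3B, H2AZ2 and MACROH2A2), against 48.3% of all tested genes. With 3 of 7 called, the share among these genes was near the background, and the results concern single genes.

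H3-3A (ENSG00000163041; chromosome 1, bases 226061851 to 226072001 on the plus strand in GENCODE release 29, GRCh38) read 142.90, 144.94 and 137.26 FPKM in shControl. It read 209.56, 204.51 and 187.31 FPKM in shTRMT6, and every shTRMT6 library was above every shControl library. The mean went from 141.7 ± 3.98 (SD, n = 3) to 200.5 ± 11.7 FPKM (SD, n = 3), 1.41-fold higher. On the log2(FPKM + 1) scale the difference was 0.50 (SE 0.09, limma adjusted p = 0.00111), with a 95% interval from 0.31 to 0.69. With each library's trend on transcript GC content removed (GC correction), it was smaller, at 0.30 (limma adjusted p = 0.0147). H3-3A shared 11.68% of the 75-base windows of its longest coding transcript with pseudogenes that the table does not list as genes, so its values may hold or lack some fragments from these.

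H3-3B (ENSG00000132475; chromosome 17, bases 75776434 to 75785893 on the minus strand) read 334.65, 341.19 and 325.65 FPKM in shControl. It read 227.14, 205.02 and 197.92 FPKM in shTRMT6, all below the shControl range. The mean went from 333.8 ± 7.80 (SD, n = 3) to 210.0 ± 15.2 FPKM (SD, n = 3), 1.59-fold lower. The log2 difference was -0.67 (SE 0.09, 95% interval -0.86 to -0.48, limma adjusted p = 0.000195). The gene overlaps UNK on the opposite strand, with no exon base of a coding transcript covered. It shared 3.34% of its windows with H3-5, a retrocopy that was listed at 0 in every library.

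The ratio of H3-3B to H3-3A was 2.34, 2.35 and 2.37 in shControl and 1.08, 1.00 and 1.06 in shTRMT6. The ratio was thus nearly the same within each group, and the groups lay far apart. It was 2.25-fold lower in shTRMT6, a log2 difference of -1.17 between means of 1.24 ± 0.01 and 0.07 ± 0.06 (SD, n = 3 each). An exact two-sided permutation test gave p = 0.1, its minimum for groups of 3, or 0.15 adjusted over the 3 gene pairs compared. Scaling between libraries cancels in such a ratio.

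**Figure D2:**
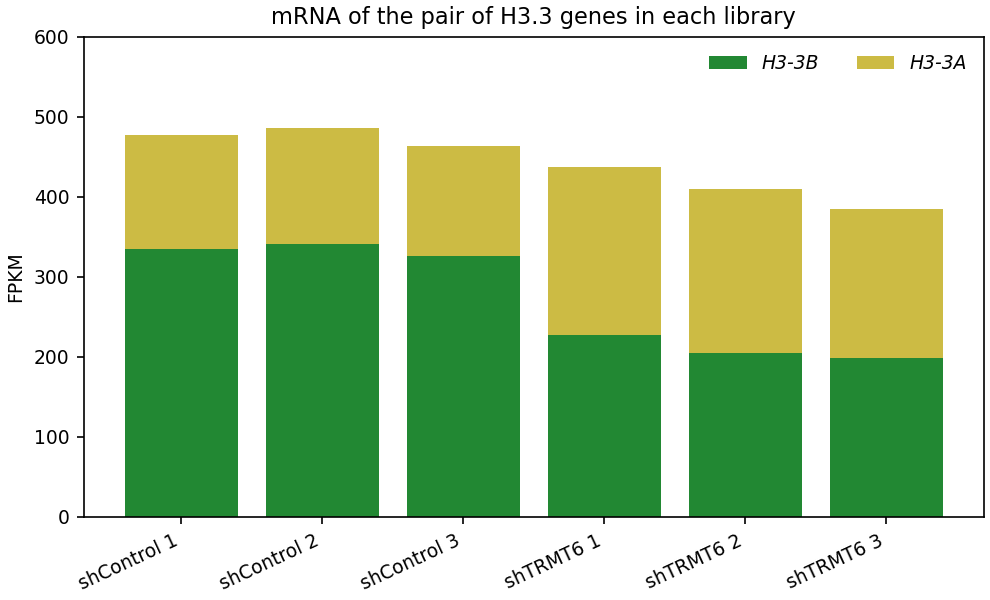
Stacked bars of H3-3A and H3-3B FPKM in each of the 6 libraries (y axis, FPKM from 0). H3-3B made up 70.08% to 70.35% of each shControl bar and 50.06% to 52.01% of each shTRMT6 bar, and the whole bars were lower in shTRMT6.

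Summed over both genes, H3.3 mRNA was 477.55, 486.13 and 462.91 FPKM in shControl, and 436.70, 409.53 and 385.23 in shTRMT6. The sum was lower in every shTRMT6 library, with means of 475.5 ± 11.7 and 410.5 ± 25.7 FPKM (SD, n = 3), 1.16-fold lower. The decrease of H3-3B was thus larger in FPKM than the increase of H3-3A. H3-3B gave 70.08%, 70.18% and 70.35% of the sum in shControl and 52.01%, 50.06% and 51.38% in shTRMT6.

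Among the 9 genes of the H3.3 chaperones, all tested, 1 was called higher and 1 lower (median log2 fold change -0.07). With the replicate number as a block 1 was higher and 3 lower, and after GC correction 0 were higher and 2 lower. CABIN1, a subunit of the HIRA complex, went from 17.02 to 11.94 FPKM, 1.43-fold lower (log2 difference -0.47, limma adjusted p = 0.00677), and was at -0.31 after GC correction (limma adjusted p = 0.014). ASF1A, which hands H3-H4 dimers to HIRA, went from 5.82 to 8.16 FPKM, 1.40-fold higher (limma adjusted p = 0.0133), and was no longer called after GC correction (limma adjusted p = 0.107). HIRA itself read 27.1 FPKM in shControl and 23.0 in shTRMT6 (limma adjusted p = 0.0749), and was called lower with the block (limma adjusted p = 0.0391). The histone chaperone NASP was also called lower with the block (limma adjusted p = 0.0149). DAXX read 49.8 and 47.4 FPKM (limma adjusted p = 0.636). HIRA, NASP and DAXX were named after their values were seen.

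The 11 tested readers of H3.3 and enzymes acting on H3 lysine 36 held 2 genes called higher and 1 called lower (median 0.13), against 5 and 1 after GC correction and 3 and 1 with the replicate block. NSD2, a lysine 36 dimethyltransferase, fell from 40.1 to 22.3 FPKM, 1.80-fold (limma adjusted p = 9.13e-05). The demethylase KDM4A rose from 11.4 to 17.5 FPKM, 1.53-fold (limma adjusted p = 0.00106). KDM4C, its relative, rose from 3.97 to 5.20 FPKM, 1.31-fold (limma adjusted p = 0.04).

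H2AZ1 (ENSG00000164032; chromosome 4, bases 99948086 to 99950388, minus strand) read 293.30, 297.83 and 273.10 FPKM in shControl, and 253.43, 273.50 and 244.38 in shTRMT6. The groups overlapped by 1 library, shTRMT6 replicate 2, with means of 288.1 ± 13.2 and 257.1 ± 14.9 FPKM (SD, n = 3). Its log2 difference was -0.16 (SE 0.09, 95% interval -0.36 to 0.03) and was not called (limma adjusted p = 0.167). An antisense RNA covers 61 of its exon bases.

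H2AZ2 (ENSG00000105968; chromosome 7, bases 44826791 to 44848083, minus strand) encodes a protein that differs from H2AZ1 at 3 of 128 residues. It read 52.37, 58.78 and 59.23 FPKM in shControl, and 51.34, 52.10 and 45.28 in shTRMT6. The shTRMT6 libraries lay lower without overlap, but 2 of them by little: the lowest shControl library was at 52.37 and the highest shTRMT6 library at 52.10 FPKM. The means were 56.8 ± 3.84 and 49.6 ± 3.74 FPKM (SD, n = 3). The log2 difference was -0.19 (SE 0.10, 95% interval -0.41 to 0.02, limma adjusted p = 0.144), not called.

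Both H2A.Z genes were called lower after GC correction, H2AZ1 at -0.21 (limma adjusted p = 0.0477) and H2AZ2 at -0.33 (limma adjusted p = 0.0042). The same fit called 1784 of the 10592 tested genes lower. The ratio of H2AZ2 to H2AZ1 was 0.18, 0.20 and 0.22 in shControl and 0.20, 0.19 and 0.18 in shTRMT6, with overlapping groups. Its log2 difference was -0.03 (exact permutation p = 0.8, also 0.8 adjusted over the 3 pairs). The summed H2A.Z mRNA was 345.67, 356.61 and 332.33 FPKM in shControl, and 304.77, 325.60 and 289.66 in shTRMT6. The sum was lower without overlap, with means of 344.9 ± 12.2 and 306.7 ± 18.05 FPKM (SD, n = 3), 1.12-fold lower.

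Among the 20 tested genes of the H2A.Z exchange complexes and chaperones, 5 were called higher and 2 lower (median 0.09), against 4 and 1 after GC correction and 5 and 3 with the replicate block. EPC2, a subunit of the NuA4/TIP60 acetyltransferase complex, rose from 2.61 to 5.45 FPKM, 2.09-fold (limma adjusted p = 0.000288). ACTR6, an actin-related subunit of the SRCAP complex, rose from 7.17 to 12.1 FPKM, 1.69-fold (limma adjusted p = 0.001). ING3, also of NuA4/TIP60, rose from 5.02 to 6.96 FPKM, 1.39-fold (limma adjusted p = 0.0328), and was not called after GC correction (limma adjusted p = 0.218). ZNHIT1 and NAP1L1 were the other genes called higher, and EP400 and TRRAP were those called lower. After GC correction NAP1L1 (limma adjusted p = 0.386), EP400 (0.124) and TRRAP (0.142) also lost their calls, while RUVBL1 was called higher and ANP32E, an H2A.Z chaperone, lower.

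H2AX (ENSG00000188486; chromosome 11, bases 119093854 to 119095467, minus strand, 1 exon) read 154.97, 119.63 and 118.56 FPKM in shControl, and 121.23, 95.51 and 112.22 in shTRMT6. The groups overlapped, and replicate 1 was the highest library of each group. The mean went from 131.1 ± 20.7 to 109.7 ± 13.1 FPKM (SD, n = 3), 1.195-fold lower. The log2 difference was -0.25 (SE 0.12, 95% interval -0.51 to 0.01) and was not called (limma adjusted p = 0.124). With the replicate number as a block the same difference was called (SE 0.08, limma adjusted p = 0.0097). H2AX is the most GC-rich of these genes at 66.4% over its transcripts, and with GC correction the difference was -0.08 (limma adjusted p = 0.404). Without shControl replicate 1, whose GC trend stood apart, it was -0.13 without correction.

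H2AJ (ENSG00000246705; chromosome 12, bases 14774383 to 14778002, plus strand) was listed at 0 in all 6 libraries and was not tested. Of 77 ribosomal protein genes, 2 were also at 0 in every library, so a listed 0 can be a failed estimate.

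Of 16 genes for H2A.X kinases, phosphatases and damage signalling, 13 were tested and 3 were listed at 0 throughout (EYA1, EYA2 and EYA4). Among the 13, 2 were called higher and 3 lower (median 0.06), against 4 and 3 with the replicate block, which added RAD50 and RNF8. NBN, of the MRE11 complex, rose from 11.22 to 17.95 FPKM, 1.60-fold (log2 difference 0.65, limma adjusted p = 0.00303), and was at 0.43 after GC correction (limma adjusted p = 0.00409). MDC1, which binds phosphorylated H2A.X, fell from 22.003 to 14.69 FPKM, 1.498-fold (limma adjusted p = 0.00177). PRKDC, a kinase that phosphorylates H2A.X, fell from 37.4 to 26.6 FPKM, 1.41-fold (limma adjusted p = 0.00207). The other calls were EYA3, higher, and BRCA1, lower. The kinases ATM (1.95 and 2.03 FPKM) and ATR (2.52 and 2.60 FPKM), named after their values were seen, were not called (limma adjusted p = 0.81 and 0.823).

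Of 16 tested proliferation genes, 8 were called lower, 0 higher and 8 were not called by limma (median -0.31). At an unadjusted p under 0.05 in limma, 9 were lower and 0 higher, and after GC correction 12 were called lower and 0 higher (9 and 0 with the replicate block). Their summed FPKM was 1374, 1301 and 1259 in shControl and 1023, 1050 and 906 in shTRMT6, without overlap. MKI67 fell 2.30-fold (limma adjusted p = 0.000102), the replication helicase subunit MCM5 1.89-fold (adjusted p = 0.000147) and the transcription factor E2F1 1.70-fold (adjusted p = 0.000482). Their part in the values of H2AX, H2AZ1 and H2AZ2 was not tested, and fewer cycling cells and less mRNA per cell cannot be told apart in bulk libraries.

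MACROH2A1 (ENSG00000113648; chromosome 5, bases 135333900 to 135399914, minus strand) read 131.65, 122.43 and 128.02 FPKM in shControl, and 132.44, 120.44 and 118.17 in shTRMT6. The groups overlapped, with means of 127.4 ± 4.64 and 123.7 ± 7.67 FPKM (SD, n = 3). The log2 difference was -0.04 (SE 0.09, 95% interval -0.24 to 0.15, limma adjusted p = 0.737). With GC correction it was 0.10 and again not called (limma adjusted p = 0.284). Antisense RNAs cover 1010 of the 3192 exon bases of its coding transcripts, 780 of them in the main transcript, and without a stated strand setting their fragments cannot be told apart. The table gives 1 value for the gene, so the splice forms macroH2A1.1 and macroH2A1.2 were not separated.

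MACROH2A2 (ENSG00000099284; chromosome 10, bases 70052796 to 70112280, plus strand) read 30.20, 29.28 and 27.79 FPKM in shControl, and 44.56, 45.80 and 42.73 in shTRMT6. All shTRMT6 libraries lay well above the shControl range. The mean went from 29.1 ± 1.22 to 44.4 ± 1.54 FPKM (SD, n = 3), 1.53-fold higher. The log2 difference was 0.59 (SE 0.09, 95% interval 0.39 to 0.79, limma adjusted p = 0.000517). Its protein matched macroH2A1 at 263 of 387 aligned positions (67.96%), and no 75-base window was shared with another gene.

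The ratio of MACROH2A2 to MACROH2A1 was 0.23, 0.24 and 0.22 in shControl and 0.34, 0.38 and 0.36 in shTRMT6. It was higher in every shTRMT6 library, 1.57-fold on average (log2 difference 0.65, exact permutation p = 0.1, the smallest possible, 0.15 adjusted over 3 pairs). MACROH2A2 thus gave 18.66%, 19.30% and 17.84% of macroH2A FPKM in shControl and 25.18%, 27.55% and 26.56% in shTRMT6. The sum of both genes overlapped between groups, at 156.5 ± 5.10 and 168.0 ± 8.20 FPKM (SD, n = 3).

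Of 15 genes listed for macroH2A deposition and binding, 12 were tested, with 3 called higher and 2 lower (median 0.08). Action of these genes on macroH2A was not measured. MACROD1, a macrodomain protein that removes ADP-ribose, fell from 28.2 to 12.9 FPKM, 2.19-fold (limma adjusted p = 4.95e-05). SPOP, a CUL3 ubiquitin ligase adaptor that acts on macroH2A, rose from 11.01 to 17.18 FPKM, 1.56-fold (limma adjusted p = 0.00211). DDX5, an RNA helicase, rose from 265.1 to 367.2 FPKM, 1.39-fold (limma adjusted p = 0.0054). CUL3 was also called higher and SSRP1, a subunit of the FACT chaperone, lower. SSRP1 lost its call after GC correction (limma adjusted p = 0.0866), and the remodeller HELLS was then called lower (limma adjusted p = 0.000591). With the replicate block 3 genes of this list were higher and 3 lower.

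**Figure D3:**
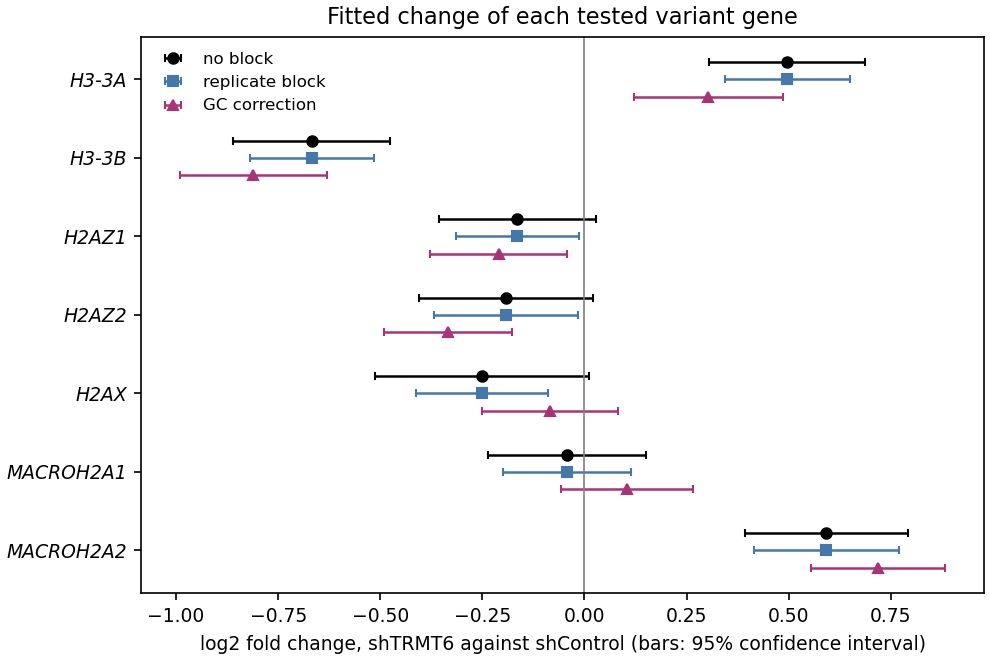
Difference between shTRMT6 and shControl on the log2(FPKM + 1) scale for the 7 tested variant genes (x axis), with 95% intervals, in the fit without a block, with the replicate block and with GC correction. H3-3A and MACROH2A2 lay above 0 and H3-3B below 0 in all 3 fits, while MACROH2A1 intervals crossed 0 in all 3. The H2AZ1 and H2AZ2 intervals lay below 0 with the block and with GC correction, and the H2AX interval with the block alone.

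The variant genes were then set against the replication-dependent genes of the same histone. In the H2A family, 6 variant and 17 replication-dependent genes were summed. The variants gave 87.98%, 88.58% and 89.04% of this FPKM in shControl and 65.77%, 65.11% and 65.11% in shTRMT6. The difference of -23.2 percentage points came with a variant sum of 632.4 ± 28.2 against 584.4 ± 20.3 FPKM (SD, n = 3), 1.08-fold lower. The replication-dependent sum went from 82.04 ± 7.998 to 310.0 ± 7.37 FPKM (SD, n = 3), 3.78-fold higher. The variant sum thus differed far less between the groups than the replication-dependent sum. Most of the replication-dependent sum came from a pair of genes with nearly the same sequence. HIST2H2AA4 gave 44.7 FPKM of it in shControl and 179.7 in shTRMT6, and HIST2H2AA3 gave 6.91 and 45.1 FPKM.

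**Figure D4:**
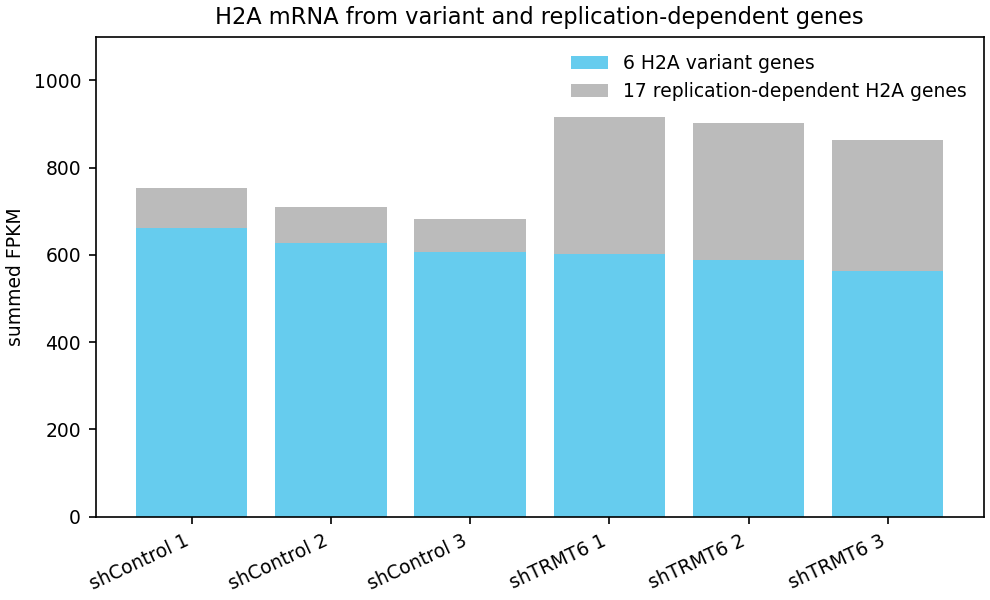
Summed FPKM of the 6 H2A variant genes and the 17 replication-dependent H2A genes in each library (y axis, FPKM from 0). The replication-dependent sum was 74.66 to 90.54 FPKM in the shControl libraries and 301.55 to 314.74 FPKM in the shTRMT6 libraries, and the variant sums lay between 562.78 and 662.49 FPKM.

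Of these 17 replication-dependent H2A genes, 11 were tested, 10 called higher and 1 lower (H2AC20), with a median of 1.25. H2AC7, H2AC11 and H2AC13 had shControl means of 0.87, 0.81 and 0.80 FPKM. They passed the mean of 1 FPKM only through shTRMT6, which favours a higher call. HIST2H2AA4 went from 44.7 to 179.7 FPKM (4.02-fold, limma adjusted p = 2.76e-07). For H2AC6 the values were 4.75 and 24.9 FPKM (5.24-fold, limma adjusted p = 5.38e-07). HIST2H2AA3 went from 6.91 to 45.1 FPKM (6.53-fold, limma adjusted p = 0.00417) and was listed at 0 in shControl replicate 3. H2AC20 was no longer called after GC correction (limma adjusted p = 0.116). The sequences of HIST2H2AA3 and HIST2H2AA4 are nearly the same, which leaves the split of fragments between them uncertain. H2AC7 (97.81%), H2AC17 (85.27%), H2AC14 (82.43%), H2AC13 (60.14%) and H2AC20 (23.73%) also shared 75-base windows with other genes of the table. The calls of these genes are thus not all separate measurements. In the H3 family the variants gave 98.73%, 99.05% and 99.01% of the summed FPKM in shControl and 96.95%, 97.15% and 96.51% in shTRMT6. The 13 replication-dependent H3 genes summed to 5.15 and 13.2 FPKM, and both tested members, H3C10 (4.35-fold) and H3C6 (4.43-fold), were called higher. H3C6 had means of 0.42 FPKM in shControl and 1.86 in shTRMT6. It too passed the mean of 1 FPKM only through shTRMT6, and its fold change rests on values near the floor. How mRNA was enriched was not given, and a poly(A) step would leave out most stem-loop histone mRNA, so these shares describe the libraries and not the cells' histone pools.

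Other replication-independent histone genes were mostly under the test's minimum, and 6 of 12 were listed at 0. The linker histone gene H1-10 was called lower, from 62.6 to 42.8 FPKM (1.46-fold, limma adjusted p = 0.00985). CENPA, the centromeric H3 variant, was tested and not called (limma adjusted p = 0.343).

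**Figure D5:**
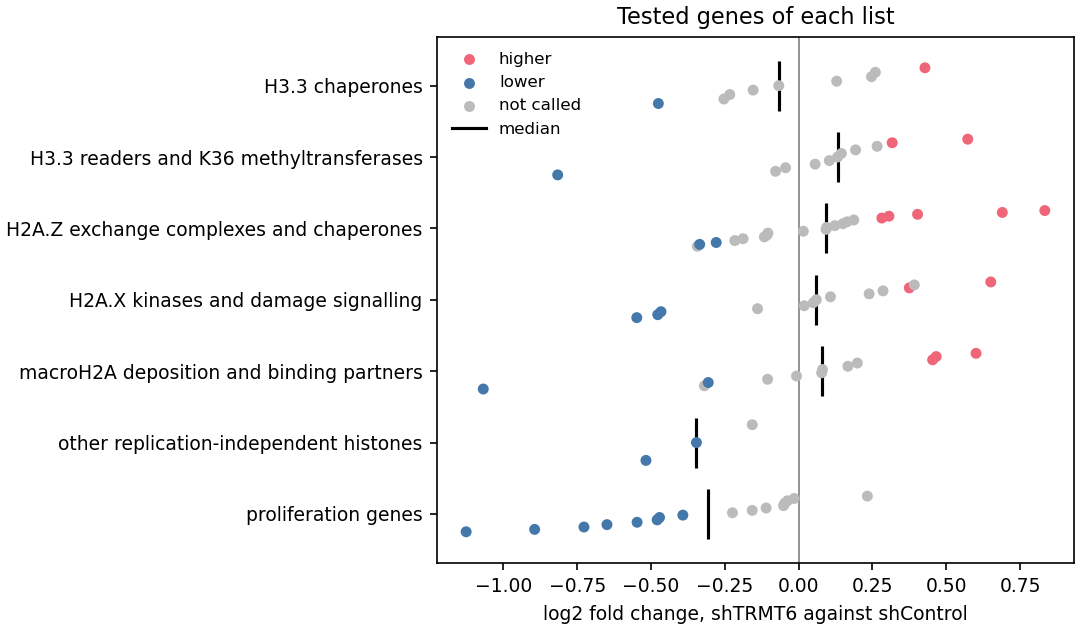
Difference between shTRMT6 and shControl on the log2(FPKM + 1) scale (x axis) for every tested gene of 7 lists, with red points called higher by limma, blue points called lower, grey points not called and a bar at each list's median. The 5 lists of chaperones, exchange complexes, readers, enzymes, signalling genes and partners had medians between -0.07 and 0.13 with calls on both sides of 0. The proliferation genes had a median of -0.31 with calls below 0 alone.

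The genes whose log2(FPKM + 1) values followed each called variant gene most closely over the 6 libraries were taken by Pearson correlation. For H3-3A these were ARF6 (0.9996), PCGF6 (0.9979) and PSMA5 (0.9974), and 64 genes exceeded 0.99. For H3-3B they were PACSIN2 (0.9974), CHTF8 (0.9958) and WDR45B (0.9953), with 21 genes above 0.99. For MACROH2A2 they were SDSL (0.9985), MCCC2 (0.9983) and H2BC21 (0.9979), with 48 above 0.99. The 6 points share the 2 groups, so a gene that separates the groups in the same direction tends to score high.

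TRMT6 checked the labels: it read 14.43, 17.96 and 16.85 FPKM in shControl and 1.58, 1.73 and 1.09 in shTRMT6, 11.2-fold lower (limma adjusted p = 4.33e-08), and TRMT61A was not called (limma adjusted p = 0.294), although it was called higher after GC correction (limma adjusted p = 0.00662). Of 10 epithelial markers, 5 (CDH1, CDX1, VIL1, KRT19 and KRT20) were listed at 0 throughout, and CEACAM5 did not exceed 0.01 FPKM. KRT18 read 104.97 to 135.58 FPKM in shControl and 179.06 to 193.27 in shTRMT6, and was called higher (limma adjusted p = 0.00053). EPCAM was also called higher (limma adjusted p = 0.0282), at 3.01 to 4.83 FPKM in shControl and 5.25 to 7.4 in shTRMT6. KRT8 read 8.4 to 11.09 FPKM in shControl and 9.71 to 10.29 in shTRMT6. CDX2 read 4.53 to 6.39 and 4.55 to 5.59 FPKM, and neither of these was called. The whole epithelial list summed to between 123.6 and 156.1 FPKM in shControl and between 201.0 and 213.6 in shTRMT6, and its part in the results was not tested. Summed fibroblast and endothelial markers stayed at or under 1.39 and 0.17 FPKM, and leukocyte markers other than CD68 at or under 0.36 per gene. CD68 read 676.97 to 810.46 FPKM in shControl and 738.42 to 996.37 in shTRMT6, and was not called (limma adjusted p = 0.102). It was called higher with the replicate block (limma adjusted p = 0.00512) and after GC correction (limma adjusted p = 0.014). Steps between low values gave rough depths in M fragments (M, mega). They were 21.1, 27.3 and 28.2 in shControl and 20.5, 18.1 and 19.0 in shTRMT6, lower in every shTRMT6 library. For shControl replicate 2 the next best value, 26.3, scored nearly as well. The trend of expression on GC content stood apart in shControl replicate 1, at 0.22 log2 units per 10 percentage points against -0.15 to 0.03 in the others.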

How the data were processed

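RNA was sequenced from 6 RKO libraries, 3 shControl and 3 shTRMT6. The authors deposited 1 FPKM value per gene and library; tools named in the submitters' processing notes, with no role, are HISAT2, RSEM, StringTie 1.3.1, Bowtie2 2.2.8 and fastp 0.18.0, while build, annotation and strand setting are not given in the sources used here. Table columns abbreviate the groups and were matched to titles by group and replicate number. FPKM are not counts, so limma 3.58.1 (R 4.3.3) with a trended variance prior was run on log2(FPKM + 1) for the 10592 genes whose mean reached 1 FPKM, two-sided, adjusted over all of them, with a threshold of 0.05; the pseudocount understates changes of low genes. Ratios of paired genes took exact permutation tests. The fit was tested on simulated data. Coordinates, GC content and shared 75-base windows came from GENCODE release 29.

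Deviations from the group means correlated at 0.21, 0.36 and 0.17 between same-numbered libraries, against -0.29 to 0.09 between the others. The labels state no pairing. The main fit and the permutation tests did not use the replicate numbers, and the replicate block did. The labels do not say that replicates are separate cultures, and p-values then reflect only the spread of these libraries, possibly technical. The 8 genes and all lists were chosen with earlier results of these data known. H2AC25 was moved to the replication-dependent list after its values were seen, because it lies in a histone cluster. Each list names up to 3 called genes with the largest absolute log2 fold change, or its most abundant gene where none was called; other names were chosen after their values were seen. A gene that meets this rule is not reported here. Alternatives were a pseudocount of 0.1, no filter, a mean of at least 5 FPKM, median-of-ratios scaling, other variance priors, the replicate block, GC correction (spline, 5 degrees of freedom), both together, and each library left out.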

Additional observations from a re-analysis of the deposited data

How the results depend on the processing

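Over 15 alternatives H3-3A (0.30 to 0.54), H3-3B (-0.81 to -0.63) and MACROH2A2 (0.56 to 0.72) kept their calls, with highest adjusted p of 0.0147, 0.00457 and 0.00466. The replicate block made 2 members lower instead of 1, adding H2AX (-0.25, adjusted p = 0.0097), and changed no other member's call (blocked counts of the lists stand beside them); 4954 genes were then called instead of 3746. GC correction made 3 lower, adding H2AZ1 (-0.21, adjusted p = 0.0477) and H2AZ2 (-0.33, adjusted p = 0.0042), as did the block with GC correction (3 lower; -0.21, adjusted p = 0.00594; -0.33, adjusted p = 0.0013). Over all tested genes, GC correction called 4097, of which 1784 were lower, and the block with GC correction called 5070, of which 2221 were lower. In both GC fits MACROH2A1 turned to 0.10 (limma adjusted p = 0.284 and 0.164). The cause was not tested. Leaving out a library gave 2396 to 3619 genes called, 1284 to 2073 higher and 1112 to 1724 lower; without shTRMT6 replicate 1 there were 2443 and without shTRMT6 replicate 2 there were 2396, with fewer samples. The H2AZ2/H2AZ1 log2 difference ran from -0.103 to 0.037 on leaving out a library, positive at 0.037 without shControl replicate 3. The variant share of H3 FPKM differed by -3.60 points, instead of -2.06, without genes sharing over 10% of their windows, which leaves out H3-3A. H2AJ gave no value under any alternative. Depth is only roughly known, which limits low genes.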
